A study of Homo sapiens with 24 samples.

Results

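MOLM-13 is an acute myeloid leukaemia cell line that carries a rearrangement fusing MLL to AF9. The study treated these cells with EPZ004777, a small-molecule inhibitor of the histone methyltransferase DOT1L, and measured messenger RNA on expression arrays after 6 days. The arrays described here are the 6 of 24 whose titles name MOLM-13 and day 6. Of these, 3 arrays are biological replicates given 3 uM EPZ004777 and 3 are biological replicates given vehicle, which was 0.1% DMSO. All were grown in RPMI medium with 10% fetal bovine serum. The other arrays of the series are of MV4-11, a biphenotypic leukaemia line with an MLL-AF4 rearrangement grown in IMDM with 10% serum, treated for 2, 4 or 6 days. MOLM-13 was sampled at day 6 alone, so no order of events can be read from it. The labels do not say how the replicate cultures were separated. The p-values measure the spread between arrays within a group, pooled over all 24 arrays.

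DOT1L methylates a lysine in the core of histone H3 on transcribed genes. Fusions of MLL with AF9, AF4 and related partners are known to bring DOT1L and elongation factors to a small set of genes of early blood cells, among them MEIS1 and MEF2C, and to hold them active. EPZ004777 competes with S-adenosylmethionine, the methyl donor, at the enzyme. Cells of the myeloid lineage that mature lose this program and gain the receptors, granule proteins and oxidases of monocytes and neutrophils.

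Values are log2 of the deposited intensity, and a change is the treated mean minus the vehicle mean, given as log2 ± standard error from a limma fit. A gene was called when its adjusted p, corrected over all 10971 genes tested, was under 0.05. With 3 arrays against 3 an exact test of a single gene cannot go below p = 0.1, so the tests rest on the spread shared across genes and arrays. The lowest value on every array was 2.19, and a gene near it has no measured level. For many such genes the change is also given with all values under 4 raised to 4. Where it is not given, the printed values include the floor.

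The treated arrays had a wider 3′ to 5′ gap, the amount by which control probe sets at the 3′ end of ACTB and GAPDH transcripts exceeded those at the 5′ end. A wide gap is a known sign of shorter or less completely copied RNA. The gap was 2.10, 2.84 and 2.31 (log2) on the treated arrays and 1.15, 0.95 and 1.13 on the vehicle arrays. The groups did not overlap, and treated replicate 2 stood highest. In MV4-11 the gap lay between 0.53 and 0.86 except on treated replicate 3 of day 6, at 1.91. The gap moved with the treatment in MOLM-13, and its part in the changes below was not tested. A fit with the gap as a covariate takes its slope only from differences between arrays of the same group. Because the MOLM-13 groups do not overlap in gap, treated minus vehicle is less precise in that fit. A call lost there, or a lower count, is not by itself a sign that a change came from the gap. Values with the gap as a covariate, or from a second probe set of the same gene, are given beside named genes where they change the call or move a called change by more than 1.5 times. Only a second probe set at log2 of at least 4 on at least 3 arrays was used.

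**Figure D1:**
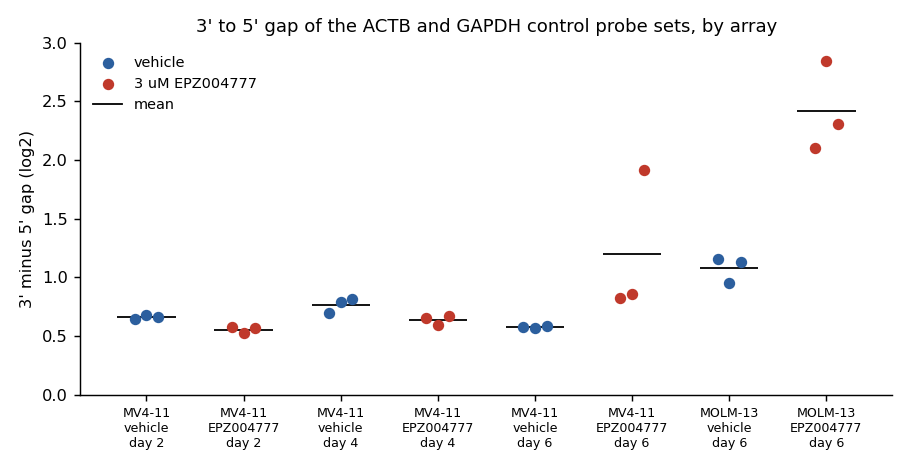
3′ minus 5′ gap (log2, averaged over the controls for ACTB and for GAPDH) on each of the 24 arrays, by line, treatment and day, with red points for EPZ004777, blue points for vehicle and a bar at the mean of 3. The treated MOLM-13 arrays (2.10 to 2.84) lie above the MOLM-13 vehicle arrays (0.95 to 1.15).

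Both groups expressed several genes of myeloid cells, but ANPEP, described below, stood near the lowest value on the vehicle arrays. SPI1 and CEBPA, transcription factors of the myeloid lineage, had vehicle means of 8.90 and 13.30, and neither was called changed. CD4 stood at 9.85, again with no call. PTPRC, the leukocyte phosphatase CD45, stood at 9.71 and was not called (-0.06), but its second probe set was called lower (-0.49, adjusted p = 0.0337 by limma). LYZ, the lysozyme of monocytes and granulocytes, stood at 14.15. SPI1 was 0.30 ± 0.13 higher in treated cells (adjusted p = 0.0597), a value close to the threshold. It was called with scaling to a common median (0.38, adjusted p = 0.0206), with a second quantile normalization (0.38, adjusted p = 0.0152), with a trended and robust prior (0.30, adjusted p = 0.0499) and without treated replicate 3 (0.41, adjusted p = 0.0162).

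Treatment changed a large part of what was measured. In all, 7214 of 10971 genes were called (65.8%), 3211 higher (29.3%) and 4003 lower (36.5%). At this share, a call alone says little about any gene, so size matters more here. Counts of calls in the lists below are to be read against 29.3% higher and 36.5% lower, and a count near them says nothing about a list. Of the genes tested, 1400 were called and at least 2-fold changed (12.8%). They divided into 608 higher (5.54%) and 792 lower (7.22%). For 7492 genes (68.3%) every treated array lay on the same side of every vehicle array. Probe sets with no gene name or several were called at 2685 of 4528 (59.3%), 468 at least 2-fold higher (10.3%) and 301 lower (6.65%). The median change over all genes was -0.03. Scaling each array to a common median gave 3846 higher and 3450 lower, and moved the median change to 0.06. With the gap as a covariate, 4339 genes were called, 1854 higher (16.9%) and 2485 lower (22.7%), and 519 of the 608 genes that rose at least 2-fold were still called higher (85.4%). Of the 792 that fell, 654 were still called lower (82.6%). A second probe set was available for 256 of the 608 and moved the same way, past the threshold, for 195 (76.2%). For the falls it did so for 287 of 399 (71.9%), and 23 were called the other way.

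**Figure D2:**
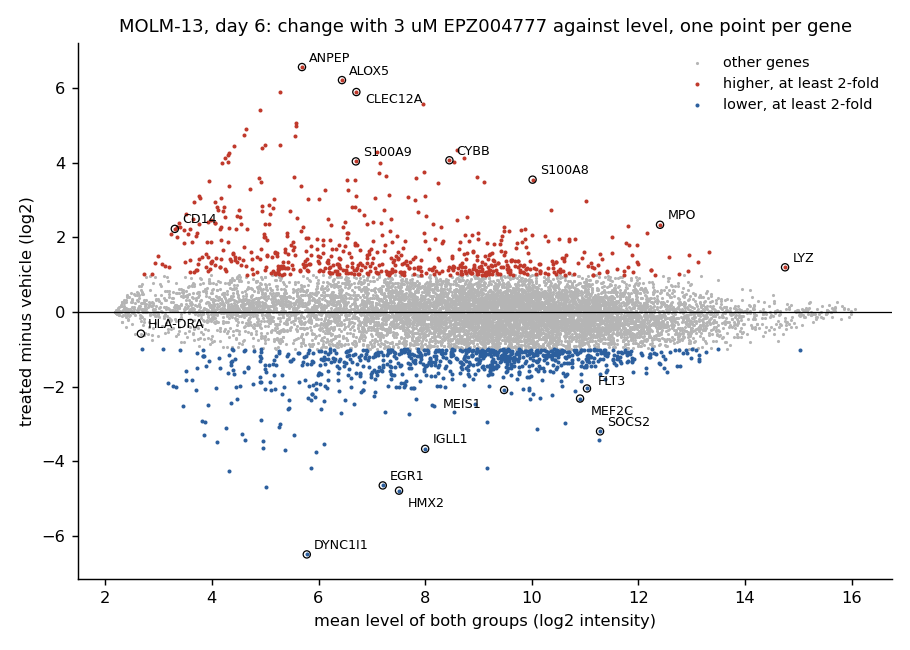
Change with treatment (log2, treated minus vehicle) against the mean level of both groups (log2 intensity) in MOLM-13 at day 6, with a point for each of 10971 genes. Genes called and at least 2-fold higher are red (608), those lower are blue (792), and the line of points rising at the left edge holds genes whose vehicle values lay at the lowest value of the arrays.

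The largest rise was of ANPEP, the membrane aminopeptidase CD13 of myeloid cells. It stood at 8.95, 9.26 and 8.73 on the treated arrays and 2.66, 2.20 and 2.35 on the vehicle arrays. Vehicle cells were thus near the lowest value for a defining surface enzyme of myeloid cells, and every treated array was far above it. The change was 6.57 ± 0.33 (adjusted p = 2.73e-12), and 4.98 with values raised to 4. ALOX5, the lipoxygenase that begins leukotriene synthesis, stood at 9.37, 9.62 and 9.65 against 3.38, 3.03 and 3.58. Its change of 6.22 ± 0.11 was 5.55 with values raised to 4. CLEC12A, an inhibitory C-type lectin receptor of myeloid cells, rose from a mean of 3.76 to 9.66, by 5.90 ± 0.21. A second CLEC12A probe set gave 0.82, which missed the threshold (adjusted p = 0.0512). No second probe set of ANPEP or ALOX5 was high enough to be used. Averaged over all probe sets of the gene, dim ones included, the rises were 2.19 for ANPEP, 1.92 for ALOX5 and 2.24 for CLEC12A.

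Several other strong risers encode products of mature phagocytes. SLPI, a secreted inhibitor of neutrophil elastase, stood at 10.75, 10.42 and 11.04 against 5.06, 5.29 and 5.15. It rose by 5.57 ± 0.23, or 47.6-fold, and was above the floor in both groups. HP, haptoglobin, which neutrophils store in granules, rose from 4.94 to 9.24. CXCL8, the neutrophil-attracting chemokine, rose from 6.66 to 10.78, and its vehicle arrays spread from 6.15 to 7.38, well below all treated arrays. PTX3, a long pentraxin of neutrophil granules, and CYP4F3, which inactivates leukotriene B, were near the lowest value in vehicle cells and averaged 7.15 and 6.44 after treatment. With values raised to 4, PTX3 and CYP4F3 rose by 3.15 and 2.44. FGR, a SRC-family kinase of phagocytes, stood at 10.43, 10.67 and 10.57 against 6.56, 6.34 and 6.73. ITGB2-AS1, an RNA transcribed opposite the integrin gene ITGB2, rose from 6.43 to 10.77, by 4.35 ± 0.24.

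Surface receptors and other genes with vehicle means under 4 filled the rest of the upper end. SIGLEC16 and SIGLEC11, sialic-acid-binding receptors that are near copies of each other, averaged 7.10 and 7.52 in treated cells and 2.19 and 3.05 in vehicle cells. Cross-hybridization between the pair was not tested. GAPT, a membrane adaptor of haematopoietic cells, and SERPINB10, a serpin of bone marrow cells, reached means of 6.97 and 8.06 from 2.23 and 3.08. ZEB1, a transcriptional repressor known from epithelial-mesenchymal transition, stood at 7.70, 7.79 and 7.35 against exactly the lowest value of 2.19 on all 3 vehicle arrays. OLIG2, a transcription factor of the oligodendrocyte lineage, likewise went from 2.19 to a mean of 6.40. NAV3, a neuron navigator protein, rose from 2.33 to 8.24, and its second probe set rose by 2.59. MGAT4A, a Golgi glycosyltransferase, rose from 3.05 to 8.11, while ANKRD22 and TMTC2 reached 7.92 and 7.24 from 3.18 and 2.76. Averaged over all probe sets, the rises were 1.71 for NAV3 and 2.10 for OLIG2. For ZEB1 and MGAT4A that average was too low to be tested. The change of TMTC2 was 4.48, or 3.24 with values raised to 4, and 2.63 by its second probe set. At lower final levels, KCNJ2, a potassium channel, and CRISPLD2, a secreted protein that binds lipopolysaccharide, averaged 5.70 and 5.64 against 2.19 and 2.81. With values raised to 4, the changes were 3.61 for ZEB1, 2.40 for OLIG2, 3.10 for SIGLEC16, 1.70 for KCNJ2 and 1.64 for CRISPLD2.

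**Figure D3:**
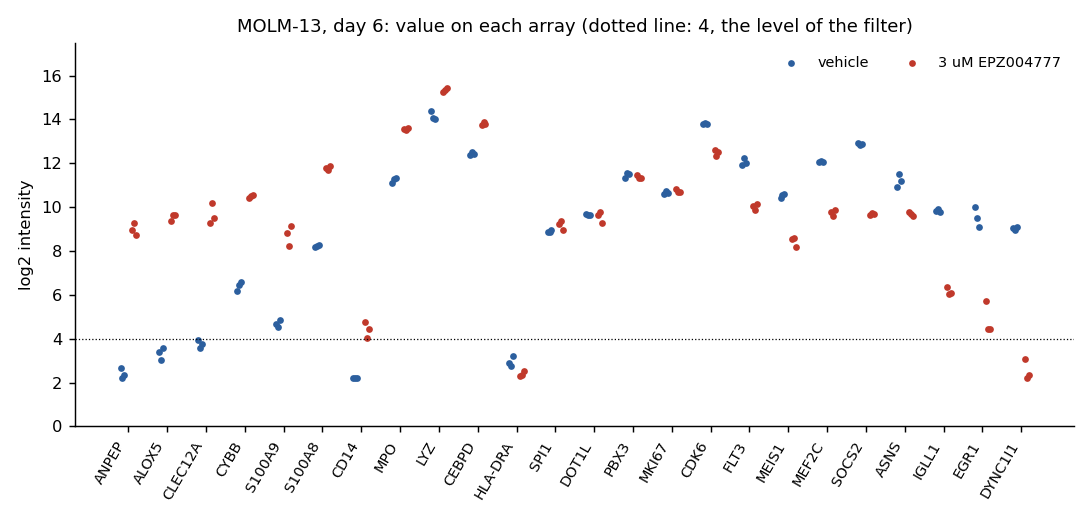
Log2 intensity on each of the 6 MOLM-13 arrays for 24 genes described in the text, with vehicle in blue and 3 uM EPZ004777 in red. The dotted line is at 4, and ANPEP, ALOX5, CLEC12A and CD14 lie below it on all vehicle arrays while DYNC1I1 lies below it on all treated arrays.

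Most tested genes of monocytes and macrophages rose. Of 16 tested in a list of 32, 12 rose and 1 fell, 11 of them by at least 2-fold. The median was 1.31, and 4 of the 16 had vehicle means under 4, where a fall could hardly be seen. CSF1R, the receptor for the macrophage growth factor, stood at 9.49, 9.50 and 9.40 against 7.88, 8.17 and 8.12, a change of 1.41 ± 0.09. CD36, a scavenger receptor for oxidized lipoproteins, rose from 6.53 to 9.20 with all 3 probe sets higher, by 2.68 and, in the second, by 1.77. MPEG1, a pore-forming protein of macrophages, rose by 2.16 ± 0.08. CD14, the lipopolysaccharide co-receptor, reached 4.78, 4.02 and 4.46 from 2.19 on all vehicle arrays. Its change of 2.23 ± 0.11 shrank to 0.42 with values raised to 4, so CD14 was at most dim in treated cells. VCAN, a proteoglycan of monocytes, was similarly dim, at a treated mean of 4.83 and a change of 0.83 with values raised to 4. ITGAM, the CD11b chain of the phagocyte integrin, rose by 1.21 ± 0.29 (adjusted p = 0.00106 by limma). With the gap as a covariate the change was 1.05 and was not called (adjusted p = 0.141).

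Most tested genes of a list of neutrophil and secondary granule genes also rose, but most of the list was not tested. Genes left untested had no probe set of their own or did not reach log2 of 4 on at least 3 arrays. Of 7 tested in a list of 21, 6 rose, all by at least 2-fold, and none fell, with a median of 1.57. The vehicle mean was under 4 for 1 of the 7. S100A8 and S100A9, which pair as the calcium-binding protein calprotectin, were the strongest. S100A8 stood at 11.79, 11.70 and 11.87 against 8.20, 8.25 and 8.27, an increase of 11.7-fold. S100A9 stood at 8.80, 8.22 and 9.14 against 4.65, 4.54 and 4.84, an increase of 16.5-fold. CSF3R, the receptor for granulocyte growth factor, rose by 1.09 ± 0.08 and MMP9, a gelatinase stored in granules, by 1.66 ± 0.10. The change of MMP9 was 1.03 with values raised to 4. Over the wider S100 family, 7 of 9 rose and none fell, with a median of 0.58.

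Primary granule genes, which are made earlier in the lineage, split by member. Of 11 tested, 4 rose and 4 fell, the median was 0.03, and 2 were called lower with the gap as a covariate. MPO, myeloperoxidase, stood at 13.58, 13.51 and 13.63 against 11.09, 11.28 and 11.34, and rose by 2.34 ± 0.20. LYZ rose by 1.20 ± 0.11 from an already high level. CST7, cystatin F, an inhibitor of granule protease activation, fell by 1.42 ± 0.13. SRGN, the proteoglycan that packs granule proteases, fell by 1.02 ± 0.11, but by 0.34 with the gap as a covariate, and a second probe set gave -0.03. The summed intensity of the list ranged from 204635 to 219169 on treated arrays and from 198359 to 213332 on vehicle arrays, which overlap.

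The phagocyte oxidase changed mainly in its catalytic subunit. CYBB, the gp91 subunit that carries electrons across the membrane, stood at 10.43, 10.51 and 10.54 against 6.18, 6.47 and 6.60. That is a rise of 4.07 ± 0.16, while a second probe set rose by 3.15 and the average of all its probe sets by 1.80. Among 7 oxidase genes tested 3 rose and 3 fell, or 2 and 1 with the gap as a covariate, and CYBB was the only member with a change of 2-fold or more.

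Receptors that recognize microbes and glycans moved predominantly upward. In the list of lectins, Siglecs, leukocyte immunoglobulin-like receptors and Fc receptors, 20 of 27 tested rose and 2 fell, with a median of 0.69. Vehicle means were under 4 for 6 of the 27. SIGLEC10, an inhibitory Siglec, rose from 4.28 to 7.32. LILRB2, an inhibitory receptor for class I molecules, rose from 4.33 to 6.86 and CD300LF, an inhibitory receptor for lipids, from 9.35 to 11.26. Among pattern recognition receptors, 13 of 20 rose and none fell, with a median of 0.45. Vehicle means were under 4 for 7 of the 20, where a fall could hardly be seen. TLR2, a sensor of bacterial lipoproteins, stood at 10.25, 10.31 and 10.19 against 8.53, 8.71 and 8.55. TLR6, its partner, rose by 2.01 ± 0.12 from a vehicle value of 3.98 on all 3 arrays. NOD2, a cytosolic sensor of peptidoglycan, rose by 1.21 ± 0.10. TLR8, a sensor of single-stranded RNA, went from 2.19 to a mean of 5.13, or by 1.13 with values raised to 4.

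Secreted defence proteins and surface enzymes followed. C3, the central complement component, rose from 5.15 to 9.15 and CFP, properdin, from 5.52 to 8.58. THBD, thrombomodulin, rose by 1.92 ± 0.10 over 3 probe sets that all rose. Of 14 complement and coagulation genes tested 7 rose and 4 fell, with a median of 0.24. Among surface enzymes 6 of 8 rose and none fell, with a median of 0.86, and 2 of the 8 had vehicle means under 4. ADA2, the secreted adenosine deaminase of monocytes, stood at 10.77, 10.72 and 10.83 against 6.94, 7.26 and 7.31, and ENTPD1, the ectonucleotidase CD39, rose by 1.95 ± 0.17.

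In the leukotriene and prostanoid pathway, 8 of 15 rose and 3 fell, with a median of 0.46. ALOX12, the platelet-type lipoxygenase, rose from 9.89 to 11.33. PLA2G4A, the phospholipase that releases arachidonic acid, fell from 9.55 to 8.15. The enzymes at the head of the pathway therefore moved in opposite directions, with ALOX5 up and PLA2G4A down. Of 32 lysosomal genes 17 rose and 3 fell, with a median of 0.27. CTSK, a cathepsin, rose by 1.98 ± 0.12. PSAP, the saposin precursor, rose by 1.14 ± 0.07, but a second probe set gave -0.37 (adjusted p = 0.056).

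Adhesion genes had no common direction. Of 26 tested 10 rose and 10 fell, and the median was -0.01. ICAM3, a ligand of leukocyte integrins, rose from 11.08 to 12.87, PECAM1 from 10.92 to 12.71 and ITGB7, an integrin chain for homing to the gut, from 6.96 to 9.33. ITGB1, the shared chain of fibronectin and collagen receptors, fell by 0.91 ± 0.07, and all 3 of its probe sets fell, the second by 2.77. Among cytokines, chemokines and their receptors 17 of 35 rose and 7 fell, with a median of 0.35, and 2 were called lower with the gap as a covariate. After CXCL8, IL10RA, a chain of the receptor for an anti-inflammatory cytokine, rose by 2.03 ± 0.15.

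Of 20 transcription factors of myeloid differentiation, 7 rose and 6 fell, with a median of 0.10. CEBPD stood at 13.73, 13.87 and 13.77 against 12.39, 12.51 and 12.44, and CEBPE, needed for secondary granules, rose by 1.09 ± 0.13. IRF5 rose by 1.26 ± 0.07 (0.68 in a second probe set) while IRF8, a factor of monocyte commitment, fell by 0.44 ± 0.07. The largest move in this list was downward. EGR1, an immediate-early factor also linked to monocyte maturation, stood at 5.73, 4.46 and 4.46 against 9.99, 9.52 and 9.08. It fell by 4.65 ± 0.46, and all 3 of its probe sets fell.

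**Figure D4:**
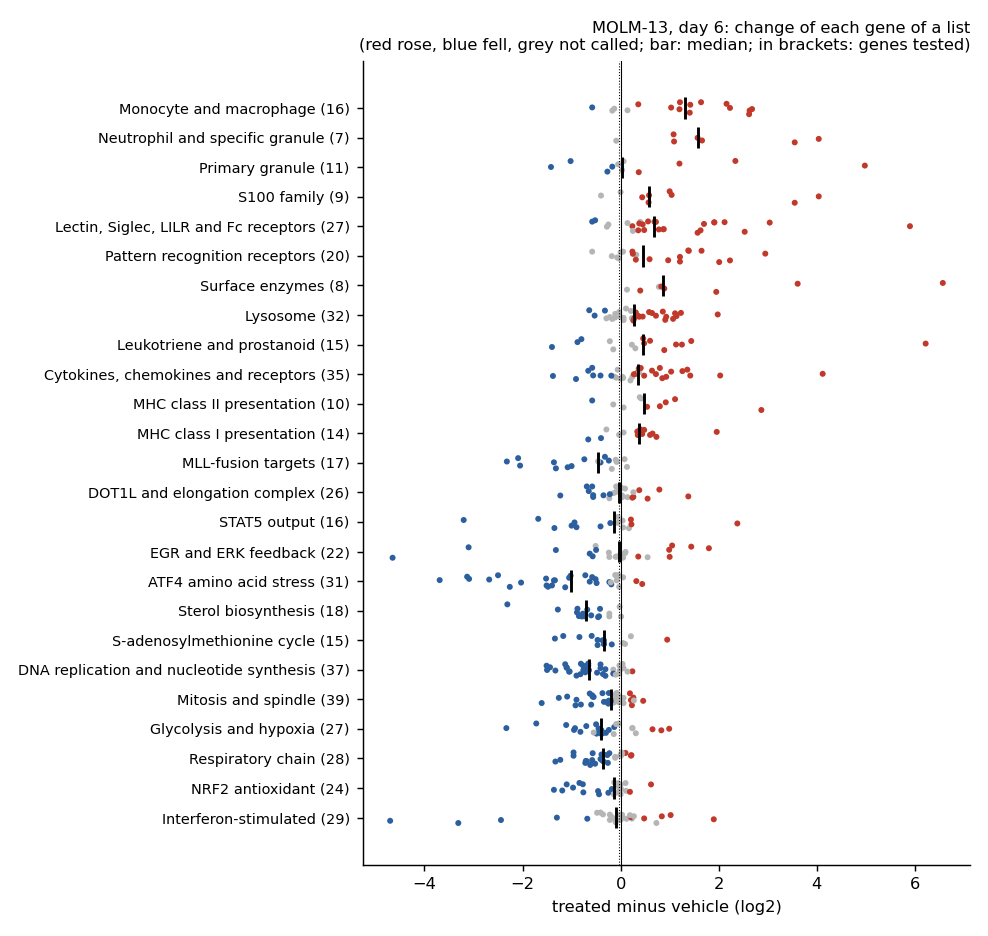
Change with treatment (log2, treated minus vehicle) of each gene tested in 25 gene lists in MOLM-13 at day 6. Red points rose, blue points fell and grey points were not called, the black bar is the list's median, and the dotted line is the median of all genes (-0.03). Monocyte and neutrophil lists have medians of 1.31 and 1.57, and the ATF4 list has a median of -1.02.

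Antigen presentation genes of class II were called in part. Of 10 tested 5 rose and 1 fell, with a median of 0.48, and 4 of the 10 had vehicle means under 4. With the gap as a covariate 3 rose and none fell. CD74, the invariant chain, stood at 11.27, 11.11 and 11.05 against 9.91, 10.07 and 10.10, a rise of 1.11 ± 0.09. A second CD74 probe set gave -0.05. HLA-DQB1 rose from 3.63 to 6.50, with 5 of 6 probe sets called higher. HLA-DRA stayed near the lowest value in both groups, at 2.28, 2.34 and 2.52 in treated and 2.88, 2.77 and 3.22 in vehicle cells. The fit called it lower by 0.58 ± 0.18 (adjusted p = 0.00848), but with values raised to 4 the change was 0.00, and without vehicle replicate 3 it was -0.45 (adjusted p = 0.0541). The call was also lost by a second probe set (-0.32), by the mean of the probe sets (-0.45), with 16 added before the log (-0.17) and, in the opposite direction, with the gap as a covariate (0.19). CIITA, the class II transactivator, was at 4.83 on all 3 treated arrays and between 3.28 and 4.35 on vehicle arrays. Its rise of 0.92 ± 0.19 was lost with the gap as a covariate (0.54, adjusted p = 0.222). For class I, 9 of 14 rose and 2 fell, with a median of 0.37. NLRC5, the class I transactivator, rose from 9.53 to 11.49. B2M, the class I light chain, fell by 0.66 ± 0.11, but by 0.09 with the gap as a covariate and by 0.05 in a second probe set, neither of which was called.

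The largest fall was of DYNC1I1, an intermediate chain of the dynein motor best known from neurons. It stood at 9.03, 8.98 and 9.08 on vehicle arrays and 3.06, 2.19 and 2.34 on treated arrays. The gene thus went from a clear level to the floor on every array, with a change of -6.50 ± 0.13 (adjusted p = 1.98e-18) and of -5.03 with values raised to 4. HMX2, a homeobox gene outside the clustered families, fell from 9.90 to 5.12, by 4.79 ± 0.11. ANXA2R, described as a receptor for annexin A2, fell from 11.25 to 7.07, and IL12RB2, a chain of the interleukin-12 receptor, from 7.94 to 3.77. IL23R, a chain of the receptor for the related interleukin-23, fell from 5.85 to 2.36. EIF4E3, an RNA cap-binding protein, fell from 7.83 to 4.09, and its second probe set fell by 3.35. IGLL1, a surrogate light chain of B-cell precursors, stood at 9.82, 9.92 and 9.77 against 6.36, 6.04 and 6.09 after treatment.

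Signalling and secreted products were also among the strong falls. PDGFA, a platelet-derived growth factor chain, fell from 6.78 to 3.13. ENPP2, autotaxin, which makes lysophosphatidic acid, stood at 12.96, 13.07 and 12.89 in vehicle cells and 9.73, 9.35 and 9.57 in treated cells. That is a fall by 3.43 ± 0.09 from a high level, and its second probe set fell by 4.62. ALDH1A3, a retinaldehyde dehydrogenase, fell by 3.45 ± 0.17 and TMEM255A by 3.27 ± 0.22. MIR210HG, the host transcript of a hypoxia-induced microRNA, fell from 6.34 to 2.92. DDIT4, an inhibitor of mTOR signalling that is induced by stress, fell from 11.66 to 8.52.

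Known targets of MLL fusions moved downward. Of 17 tested in a list of 24, 12 fell and none rose, 7 of them by at least 2-fold, with a median of -0.46. Membership was drawn from the field's knowledge of these fusions with earlier results of these arrays known. MEF2C, a transcription factor of progenitors, stood at 9.80, 9.59 and 9.85 against 12.06, 12.09 and 12.04 and fell by 2.32 ± 0.06, with all 3 probe sets lower. MEIS1, a homeodomain cofactor, stood at 8.54, 8.58 and 8.18 against 10.42, 10.57 and 10.59 and fell by 2.09 ± 0.08, with a fall by 3.95 in its second probe set. Both genes remained well above the floor in treated cells. FLT3, the receptor tyrosine kinase that is also mutated in this line, fell from 12.06 to 10.01. CDK6, a kinase of the early cell cycle, fell by 1.32 ± 0.06 with 6 of 6 probe sets lower. JMJD1C and SENP6 fell by 1.36 ± 0.11 and 1.08 ± 0.09, and a second JMJD1C probe set fell by 0.50. PBX3, which pairs with MEIS1, stood at 11.46, 11.32 and 11.35 against 11.35, 11.55 and 11.52. These arrays overlap, and the change of -0.10 ± 0.07 was not called (adjusted p = 0.227). BCL2, the survival factor, fell by 0.32 ± 0.07, by 0.64 with the gap as a covariate and by 0.62 in a second probe set. With the gap as a covariate, 13 of the 17 were called lower and 1 higher.

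The enzyme that the compound inhibits was not called changed at its own transcript. DOT1L stood at 9.64, 9.79 and 9.30 against 9.71, 9.66 and 9.64, a change of -0.09 ± 0.13 (adjusted p = 0.576). It was called lower with the gap as a covariate (-0.78) and higher by a second probe set (0.51), so its direction depends on the setting. Among 26 genes of DOT1L and elongation complexes 6 rose and 8 fell, with a median of -0.03, against 3 and 5 with the gap as a covariate. KMT2A, the gene that is also called MLL, rose by 0.55 ± 0.08 (0.32 in a second probe set) and MLLT10, a DOT1L partner, fell by 0.56 ± 0.07, while a second MLLT10 probe set gave -0.03. LEO1, a subunit of the PAF elongation complex, fell by 1.23 ± 0.09, or by 0.73 with the gap as a covariate. Of 35 histone methyltransferases and demethylases 17 rose and 8 fell, with a median of 0.18, and 7 rose and 6 fell with the gap as a covariate. KDM1A, the demethylase also called LSD1, was the only one past 2-fold, at 7.83, 7.68 and 7.78 against 9.76, 9.74 and 9.62.

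Genes that report STAT5 signalling downstream of FLT3 were lower in part. Of 16 tested 8 fell and 3 rose, with a median of -0.14. SOCS2, a feedback inhibitor, stood at 9.62, 9.73 and 9.70 against 12.94, 12.84 and 12.86 and fell by 3.20 ± 0.05, and by 5.43 in its second probe set. SOCS2-AS1, an RNA from the opposite strand of that locus, fell from 6.45 to the floor at 2.20. CISH fell by 0.90 ± 0.07, PIM1, a survival kinase, by 1.35 ± 0.11 and SOCS1 by 1.68 ± 0.19. BCL6, which STAT5 is known to repress, rose from 5.99 to 8.37, by 2.38 ± 0.19. MYC, another gene of this list, fell by 1.00 ± 0.12, but by 0.29 with the gap as a covariate.

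Feedback genes of the ERK pathway had no common direction. Of 22 tested 6 rose and 6 fell, with a median of -0.04. EGR3 fell from 5.81 to 2.71 beside EGR1. DUSP6, a phosphatase of ERK, rose from 9.84 to 11.28, with all 3 probe sets higher. JUN rose by 1.80 ± 0.23 and FOSL2 by 1.05 ± 0.08, although a second JUN probe set gave 0.09 and a second FOSL2 probe set 0.38.

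Genes of the amino acid stress response, which the transcription factor ATF4 drives, fell broadly. Of 31 tested 23 fell and 2 rose, 16 of them by at least 2-fold, with a median of -1.02. ASNS, asparagine synthetase, stood at 9.77, 9.67 and 9.61 against 10.93, 11.51 and 11.18. ALDH1L2, a mitochondrial folate enzyme, fell from 9.38 to 6.88 and VLDLR, a lipoprotein receptor, from 8.17 to 5.91. PSAT1, of serine synthesis, fell by 1.51 ± 0.11, and by 4.97 in its second probe set. The transporters SLC7A5 and SLC1A5 fell by 1.05 ± 0.08 and 1.36 ± 0.09. CHAC1, a glutathione-degrading enzyme, averaged 3.71 against 6.80, and its vehicle arrays spread from 5.64 to 7.62. ATF3, a stress-induced factor, fell by 3.69 ± 0.46 while a second ATF3 probe set gave -0.10.

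ATF4 binds, with a C/EBP partner, to composite elements of which TGATGNAA is the common core. Promoters of the list were searched for this core on both strands within 250 bases upstream of each annotated start, in RefSeq sequences of GRCh38.p14. Of 27 listed genes with a promoter in that table, 6 held it, where 3.89% of all 27305 genes did. Among all 35116 promoters 1104 held it (3.14%), and among the list's 47 promoters 6 did. A match is a description of the letters and no evidence of binding. The 6 windows are printed to show where the element lies in genes of this list. Each is 30 bases, read 5′ to 3′ along the gene's strand, with the core in capitals.
ASNS: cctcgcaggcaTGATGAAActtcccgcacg
ATF3: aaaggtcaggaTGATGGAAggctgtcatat
CEBPG: cgcgcggcgtcTGATGCAAcctgccggcaa
CHAC1: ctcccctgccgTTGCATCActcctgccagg
GARS1: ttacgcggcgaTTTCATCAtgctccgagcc
SLC1A5: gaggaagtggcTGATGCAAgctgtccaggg

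In ASNS (chr7:97872458-97872487, minus strand) the core began 68 bases upstream of the start, and in SLC1A5 (chr19:46784893-46784922, minus strand) 97 bases upstream. In CEBPG (chr19:33374060-33374089, plus strand) it began 42 bases and in ATF3 (chr1:212565205-212565234, plus strand) 191 bases upstream. In GARS1 (chr7:30594834-30594863, plus strand) and CHAC1 (chr15:40953251-40953280, plus strand) the core lay on the opposite strand, 33 and 209 bases upstream. The 6 genes were picked by their sequence and not by their change. GARS1, glycyl-tRNA synthetase, fell by 0.72 ± 0.09. CEBPG, the C/EBP partner itself, differed by -0.23 ± 0.08 with arrays that overlap. Its call (adjusted p = 0.0159) was lost without treated replicate 2 or 3 or vehicle replicate 2, with scaling to a common median (-0.14), with a second quantile normalization (-0.10) and in a second probe set (-0.07), and with the gap as a covariate the change was 0.11.

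Of 19 genes of the unfolded protein response 11 fell and 4 rose, with a median of -0.22, and 7 were called lower with the gap as a covariate. XBP1, a main transcription factor of that response, fell from 11.84 to 9.99, and its second probe set fell by 0.90. ERN1, the sensor kinase that splices XBP1 messenger RNA, rose from 7.95 to 9.51, by 1.56 and, in its second probe set, by 0.81. In the S-adenosylmethionine cycle, which supplies DOT1L's methyl donor, 11 of 15 fell and 1 rose, with a median of -0.34. CBS, which draws homocysteine out of the cycle, fell by 1.34 ± 0.14 with both probe sets lower. MAT2B, a subunit of the synthetase, fell by 1.17 ± 0.11 and AHCY, which clears the product of methylation, by 0.84 ± 0.11. With the gap as a covariate 7 of the 15 were called lower, MAT2B fell by 0.56 and AHCY was not called (-0.24, adjusted p = 0.103).

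Sterol synthesis genes fell. Of 18 tested 14 fell and none rose, with a median of -0.71, and 11 were called lower with the gap as a covariate. SQLE, squalene epoxidase, stood at 9.39, 8.55 and 9.06 against 11.31, 11.60 and 11.01. Of its 4 probe sets 3 fell, and the second by level rose by 0.45. Its fall by 2.31 was 1.52 with the gap as a covariate. HMGCS1 fell by 0.88 ± 0.15, by 1.36 with that covariate and by 2.55 in a second probe set. Among genes of fatty acids, lipid storage and LXR targets 5 of 22 rose and 12 fell. ABCA1, the cholesterol exporter, went against the others and rose from 5.15 to 8.25, by 3.10 ± 0.19, or by 2.09 with the gap as a covariate.

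Most tested genes of energy metabolism fell, mostly by less than 2-fold, while 36.5% of all genes tested fell. With the gap as a covariate 22.7% of all genes were called lower. Of 27 genes of glycolysis and hypoxia 17 fell and 3 rose, with a median of -0.39, and with the gap as a covariate 10 were called lower. ALDOC, an aldolase, and BNIP3, a mitochondrial protein induced by hypoxia, fell by 2.33 ± 0.21 and 1.72 ± 0.17, and ENO1, enolase, by 0.49 ± 0.06. Second probe sets fell by 2.59 for BNIP3 and 3.14 for ENO1, and ENO1 fell by 0.32 with the gap as a covariate. Of 28 respiratory chain genes 19 fell and 3 rose, with a median of -0.36. With the gap as a covariate 8 of the 28 were called lower, near the share of all genes. SDHD, a membrane anchor of succinate dehydrogenase, fell by 1.33 ± 0.14, or by 0.61 with that covariate. For antioxidant targets of NRF2 11 of 24 fell and 2 rose. With the gap as a covariate 4 of them were called lower, which is under the share of all genes. PRDX1, a peroxiredoxin, fell by 0.97 ± 0.07.

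Most tested genes of DNA replication fell, as did 21 of 39 mitotic and spindle genes, while 36.5% of all genes tested fell. Of 37 replication and nucleotide genes 27 fell and 1 rose, with a median of -0.65, and 21 were called lower with the gap as a covariate. RPA2, of the single-strand binding complex, stood at 8.85, 8.53 and 8.99 against 10.43, 10.43 and 10.05. MCM10 and TK1, thymidine kinase, fell by 1.50 ± 0.11 and 1.44 ± 0.12, and by 0.94 and 0.77 with the gap as a covariate. Their second probe sets fell by 0.53 and 0.31. Among the mitotic and spindle genes 5 rose and 13 were not called, and the median was -0.20. With the gap as a covariate 10 of the 39 were called lower, near the 22.7% of all genes called lower in that fit. CCNB1, cyclin B, fell by 1.26 ± 0.10 while a second probe set gave -0.01. CENPA, the centromeric histone, fell by 1.61 ± 0.16, or by 0.65 with the gap as a covariate. MKI67, the proliferation antigen Ki-67, stood at 10.82, 10.67 and 10.71 against 10.62, 10.73 and 10.66. Its arrays overlapped, and the change of 0.06 ± 0.07 was not called, although it was called higher with the gap as a covariate (0.37), by a second probe set (0.16), by the mean of its probe sets (0.34) and with a second quantile normalization (0.17).

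CDKN1B and CDKN1A, inhibitors of cyclin-dependent kinases, were lower in treated cells. CDKN1B, p27, stood at 10.57, 10.72 and 10.66 against 11.85, 11.65 and 11.55 and fell by 1.03 ± 0.11. CDKN1A, p21, fell by 0.30 ± 0.10, a call lost without treated replicate 2 (-0.25, adjusted p = 0.0529) and under scaling to a common median (-0.21) or a second quantile normalization (-0.18). It fell by 0.46 with the gap as a covariate. Of 21 kinases, cyclins and inhibitors of early cell cycle 10 fell and 3 rose, with a median of -0.20, and 6 were called lower with the gap as a covariate. Of 25 genes of MYC and ribosome synthesis 13 fell and 5 rose, with a median of -0.13, and 7 were called lower with the gap as a covariate. Among 16 of the BCL2 family 6 fell and 4 rose. BID, which links death receptors to mitochondria, fell by 1.05 ± 0.10, and by 0.49 with the gap as a covariate. BCL2L11, the pro-death protein BIM, rose by 0.54 ± 0.06, but the mean of its probe sets gave 0.10, which was not called. Targets of p53 had 5 higher and 6 lower of 21, with a median of 0.00, and 2 and 7 with the gap as a covariate.

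Interferon-stimulated genes were mostly not called. Of 29 tested 5 rose, 5 fell and 19 were not called, with a median of -0.10, and with the gap as a covariate 2 rose and none fell. IFIT3, an antiviral protein, stood at 2.73, 2.67 and 2.57 against 6.96, 7.85 and 7.27. The fall was 4.70 ± 1.07, where the standard error pools the spread of all 24 arrays. The MOLM-13 arrays of the 2 groups themselves lay far apart. In the limma fit with the gap as a covariate the call was lost (adjusted p = 0.091). Over the list, treated and vehicle arrays did not overlap for 15 of 29 genes, against 68.3% of all genes tested. IFIT1 and IFIT2 fell by 3.31 ± 0.94 and 2.44 ± 0.69, and these calls were lost in the same way. Second probe sets gave -2.08 for IFIT3 and -0.66 for IFIT2, the latter not called. MX2 and BST2, other interferon-induced restriction factors, rose by 1.90 ± 0.26 and 0.84 ± 0.07. The members thus divided, with IFIT genes lower and MX2 and BST2 higher. Of 16 targets of NF-kappaB 6 rose and 2 fell, against 5 and 6 with the gap as a covariate. TNFAIP2 rose by 1.17 ± 0.11 and NFKB1, the p105 precursor, fell by 1.11 ± 0.12.

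Lists of markers of other blood lineages differed widely in level and direction. A sum of linear intensities follows mostly the brightest members of a list and can move apart from the others. The summed intensity of 5 B-lymphoid genes was 118 to 134 on treated arrays and 923 to 1014 on vehicle arrays, and IGLL1 was its only called member. PAX5, BLNK and CD72 were under 4 on all 6 arrays. For 3 tested T and NK genes all rose, with sums of 2990 to 3103 against 1742 to 1925. CD3D, a chain of the T-cell receptor complex, stood at 8.31, 7.96 and 8.10 against 3.90, 6.08 and 6.18. Erythroid sums overlapped, at 368 to 399 against 362 to 374, and so did those of megakaryocytes, at 2200 to 2352 against 2133 to 2378. Of 10 dendritic cell genes 4 fell, 2 rose and 4 were not called, with a median of -0.19. Only 1 was called at least 2-fold lower, and the lowest change was -2.05. The sums of 3203 to 3394 against 5957 to 7111 therefore do not show a fall shared by the list. IL3RA fell by 0.66 ± 0.08. The sums of 5 mast cell, basophil and eosinophil genes were 28146 to 29329 against 24547 to 25477, where 2 fell and none rose. The median change of that list was -0.28, so its higher sums do not show a rise of the list. Monocyte and macrophage genes summed to 52733 to 58654 against 24639 to 28514 and neutrophil genes to 6165 to 6761 against 1448 to 1530. KIT, the receptor of mast cells and progenitors, was under 4 on all 6 arrays. Of the remaining lists, 2 of 9 stem and progenitor genes rose and 3 fell, 8 of 19 iron and heme genes rose and 3 fell, 4 of 12 histone genes rose and 3 fell, and 3 of 14 housekeeping genes rose and 6 fell. A change in the mix of cells and a change within each cell cannot be told apart in these bulk samples.

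The same treatment for 6 days in MV4-11 gave another set of changes in part. There, 6800 genes were called (62.0%), 859 at least 2-fold higher (7.83%) and 422 at least 2-fold lower (3.85%). Genes at least 2-fold higher in both lines numbered 228, which is 37.5% of those of MOLM-13 and 26.5% of those of MV4-11. For falls the shared number was 134, which is 16.9% and 31.8%. Only 9 genes rose 2-fold in MOLM-13 and fell 2-fold in MV4-11, and 20 did the reverse. Across genes, which are not independent, the changes of the lines correlated with Pearson r = 0.44 over 10971 genes measured on the same platform. The test of the difference between the effects called 5709 genes (52.0%), with the effect higher in MOLM-13 for 2123 (19.4%) and lower for 3586 (32.7%). The lines were grown in different media, and line and medium cannot be told apart.

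**Figure D5:**
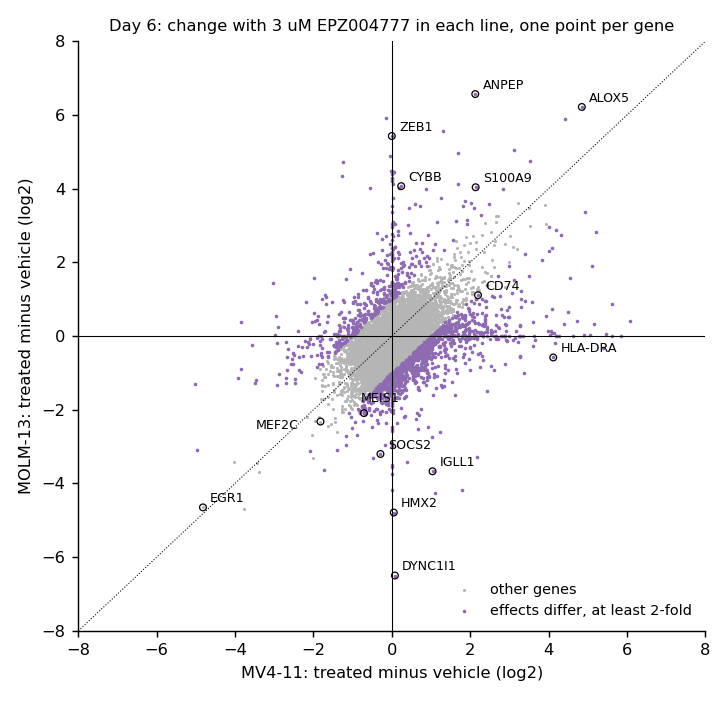
Change with treatment at day 6 (log2, treated minus vehicle) in MOLM-13 against that in MV4-11, with a point for each of 10971 genes and a dotted line where both are equal. Purple points differ between lines by the test of the difference and by at least 2-fold. EGR1 lies on the dotted line, ZEB1, HMX2 and DYNC1I1 lie on the vertical axis, and HLA-DRA lies far to the right of it.

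Several strong changes were larger in MOLM-13. ANPEP rose by 2.13 in MV4-11 and by 6.57 in MOLM-13, a difference of 4.44 ± 0.46 (adjusted p = 2.18e-07). CYBB was changed by 0.24 in MV4-11, which was not called, and the difference was 3.84 ± 0.22. ABCA1 was changed by 0.03 in MV4-11, and the difference was 3.07 ± 0.27. ALOX12 rose in MOLM-13 and fell by 3.03 in MV4-11. FGR likewise rose by 4.02 in MOLM-13 and fell by 0.55 in MV4-11. MEIS1 fell by 0.71 in MV4-11, and its fall in MOLM-13 exceeded that by 1.38 ± 0.12. DYNC1I1 and IL23R lay at the lowest value in MV4-11 with either treatment, so a fall could not be seen there. HMX2 was at 11.54 in MV4-11 vehicle cells and was changed by 0.05, against a fall by 4.79 in MOLM-13.

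Class II and mitotic genes set the lines apart the other way. HLA-DRA rose by 4.12 in MV4-11 from a vehicle mean of 9.10, a difference of -4.70 ± 0.26. CIITA rose by 3.57 there, and its difference was -2.65 ± 0.26. Of the 10 class II genes the difference test called 9 lower in MOLM-13 and 1 higher, and the list's median was 3.43 in MV4-11. Of 39 mitotic genes 31 had a higher, less negative effect in MOLM-13. MKI67 fell by 1.48 in MV4-11, and PBX3 by 1.04, where MOLM-13 had no call for either. KIT rose by 2.12 in MV4-11 from a vehicle mean of 8.16. TSPOAP1, CD59 and H2AC6 rose by 5.61, 4.03 and 4.50 in MV4-11 and were changed by 0.88, 0.03 and 0.65 in MOLM-13, of which only the first was called. TSPOAP1 was not called with the gap as a covariate (adjusted p = 0.0848) and CD59 was (0.61), and H2AC6 was called when only these 6 arrays were fitted or with 16 added before the log (0.60). No difference between the lines was called for EGR1, ALDH1A3, S100A8 or PSAT1. EGR1 fell by 4.82 in MV4-11, a difference of 0.17 ± 0.65, and ALDH1A3 by 3.43, a difference of -0.02 ± 0.24. S100A8 rose by 3.92, a difference of -0.37 ± 0.16, and PSAT1 fell by 1.22, a difference of -0.28 ± 0.15.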

How the data were processed

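Biotin-labelled RNA of the 24 samples was read on expression arrays of 54675 probe sets. The authors deposited linear intensity values made with GCRMA, per the submitters' processing notes, with no version given; other steps are not given in the sources used here. GCRMA subtracts a modelled background, so low values collapse onto a floor. The log2 was taken with a pseudocount of 0. Of all probe sets, 62 controls were left out, 41097 had 1 gene symbol, 1801 several and 11777 none in the platform annotation, and 41043 of the named ones matched RefSeq. A probe set was kept at log2 of at least 4 on at least 3 arrays, and each gene took its kept probe set of highest mean, giving 10971 genes. limma 3.58.1 in R 4.3.3 fitted group means over all 24 arrays, with Benjamini-Hochberg adjustment. The members and the 47 gene lists were chosen with earlier results of these data known.

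The text names the 20 largest rises and falls with a higher mean of at least 6, the 8 below that level, up to 6 genes of each list by adjusted p, the 10 extremes of each sign of the difference between lines, and a panel of 25 genes with the identity markers; CEBPG and GARS1 were added for their promoter sequence, and not every gene so chosen is named. On simulated data of 10971 genes the MOLM-13 comparison recovered 93 of 100 genes changed by 1 and 72 of 100 changed by 0.5 on the log2 scale. It made 7 false calls. The simulated noise was independent between genes and held no gap, and few genes were changed. It therefore does not give error rates for the real arrays, where 65.8% of genes were called. The number of arrays limits the precision, and no array pair held identical values. Alternatives covered the filter, floor, pseudocount, probe set choice, scaling, prior, arrays fitted, array weights, gap covariate, replicate block and single arrays left out. CD33 and CD34 were not analysed here.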

Additional observations from a re-analysis of the deposited data

Results flagged for a closer look

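The effect of treatment differed between MOLM-13 and MV4-11 at day 6 by limma's test of the difference for 128 of 156 genes named here and for 52.0% of all genes tested. Some of the named genes were chosen as the extremes of this same difference and others for large changes in MOLM-13, so nothing is read from the 2 shares side by side. Values are the log2 effect in MOLM-13 minus that in MV4-11, and the media of the lines differed too. Among genes of phagocytes and their surface the effect was higher in MOLM-13 for ANPEP (4.44), CYBB (3.84), FGR (4.57), SIGLEC11 (4.48), SIGLEC16 (4.94) and ITGB2-AS1 (5.61). Other effects that were higher in MOLM-13 were those of NAV3 (6.07), ANKRD22 (5.97), ZEB1 (5.42), TMTC2 (4.48), ALOX12 (4.47) and ABCA1 (3.07). MKI67 (1.54) and PBX3 (0.94) differed because they fell in MV4-11 with no call in MOLM-13.

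The effect was lower in MOLM-13 for class II genes, with HLA-DRA at -4.70 and CIITA at -2.65. It was also lower for the receptors KIT (-2.12), IL12RB2 (-4.18) and IL23R (-3.49), for the developmental regulators MEIS1 (-1.38) and HMX2 (-4.84) and for DYNC1I1 (-6.58). ANXA2R (-5.98), TMEM255A (-5.45), SOCS2-AS1 (-5.36) and IGLL1 (-4.71) fell in MOLM-13 and rose in MV4-11. TSPOAP1 (-4.73), CD59 (-4.01) and H2AC6 (-3.85) differed mainly through rises in MV4-11. HLA-DRA, KIT, IL23R and DYNC1I1 lay at the lowest values in one of the lines with either treatment, and an effect there has no measured size. Of the probe sets that name no gene or several, 2685 were called in MOLM-13, at a share of 59.3%.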

How the results depend on the processing

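With the gap as a covariate 4339 genes were called, 1854 higher and 2485 lower, and 473 fell at least 2-fold. From each gene's second probe set, which 5633 genes have, 3561 were called, 1315 higher and 2246 lower, with 278 at least 2-fold higher, 3362 called in MV4-11 and 2472 for the difference between lines. Averaging all probe sets of a gene gave 380 at least 2-fold higher. Fewer genes were tested in the second-probe-set fit; the cause of the other shifts was not tested. Leaving out each array in turn gave 6647 to 7000 called genes, 2896 to 3080 higher and 3751 to 3920 lower, and 1230 to 1571 at least 2-fold changed, 575 to 659 higher and 655 to 912 lower. The difference between lines then ranged from 5330 to 5623, and was 6193 without treated MV4-11 replicate 3, a choice made after seeing its gap.

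Over the named genes, 2805 of the values under an alternative kept direction and side of the threshold, 32 lost the call, 14 gained it and 8 reversed. The reversals were PSAP (-0.37), CD74 (-0.05), DOT1L (0.51) and SQLE (0.45) by the second probe set, HLA-DRA (0.19) and CEBPG (0.11) with the gap as a covariate, HLA-DRA (0.00) with values raised to 4, and B2M (0.03) by the average of its probe sets. The replicate block called 6943 genes, 1400 of them at least 2-fold changed, and changed the call of no named gene. Same-numbered treated and vehicle arrays correlated in their deviations at 0.005, -0.104 and -0.022, and differently numbered ones at -0.089 to 0.099. With means of 3 arrays, these values cannot settle whether same-numbered cultures were set up together. Scaling again by quantiles gave 3828 higher and 3386 lower and moved the treated minus vehicle median from -0.0937 to 0.0144. Values near the floor limit what can be said of the 610 genes with a vehicle mean under 4.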
